A study of Homo sapiens with 3 samples.

Results

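The expression of 10 genes of telomere maintenance was read out in SH-SY5Y (SHSY5Y in the labels), a human neuroblastoma cell line of sympathetic neuronal lineage: TERT, TERC, DKC1, TERF1, TERF2, TINF2, POT1, ACD, ATRX and DAXX. They were chosen by symbol, as the rows of the deposited expression table whose Ensembl identifiers carry these names in GENCODE release 29, and all 10 were found among the 59152 gene names of the table. The series holds 1 group of 3 libraries of stranded mRNA, with no second cell line, treatment or genetic change named in the labels. Each library came from its own T25 flask at about 60% confluency and was started from 500 ng of total RNA, per the labels' protocols. The flasks hold 1 established line, so the spread between libraries is that between cultures and not between tumours. With no contrast between samples, each gene was set against a fixed level of 1 FPKM (a read density per unit of transcript length and of library size), and genes were compared with each other within a library. FPKM is scaled to length, so levels of different genes were set side by side. An error particular to a gene, as from shared exons or the transcript length used, would recur in every library. The SD between libraries and the count of libraries with 1 sign do not measure such an error.

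Chromosome ends shorten with each round of replication unless they are rebuilt. Telomerase rebuilds them with the reverse transcriptase TERT, which copies a short template in the RNA TERC, while dyskerin (DKC1) and its partner proteins hold the RNA in a stable particle. Shelterin is the protein complex that covers telomeric DNA and hides it from the DNA damage response. ATRX is a chromatin remodeller that works with the chaperone DAXX to place the histone variant H3.3 at telomeres, and loss of ATRX or DAXX goes with a recombination-based way of keeping telomeres, called ALT, in many tumours. In neuroblastoma, high TERT expression or ALT marks tumours of poor outcome.

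The sequences below show the parts of telomerase RNA that TERT and dyskerin act on. TERC lies on chromosome 3 (169764520 to 169765060, minus strand, GRCh38), and its single annotated transcript, taken from GENCODE, has 541 bases. In the first stretch, bases 21 to 100 (chr3:169764961-169765040), the capitals mark the template that TERT copies into telomere repeats, bases 46 to 56. In the second, bases 361 to 451 (chr3:169764610-169764700), the capitals mark the letters AGAGGA at base 372 and ACATGC at base 446, which hold the H and ACA boxes of the domain that dyskerin binds. Each of the 3 runs of capitals occurred 1 time in the transcript.
TERC template region: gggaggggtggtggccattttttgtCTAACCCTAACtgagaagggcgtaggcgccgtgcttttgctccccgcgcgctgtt
TERC 3' domain: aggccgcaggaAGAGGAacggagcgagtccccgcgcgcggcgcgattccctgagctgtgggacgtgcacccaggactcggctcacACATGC

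The 9 protein-coding genes were all present and the telomerase RNA was close to absent from these libraries. By limma's moderated test with Benjamini-Hochberg adjustment over 31736 genes, 9 of 10 were called above 1 FPKM, where 45.5% of all genes tested were, and 1, TERC, was called below, where 43.7% were. Among 16750 protein-coding genes 70.6% were called above and 24.6% below, so a call above the level is common for coding genes and says little of these 9 in particular. The median of the 10 was 48.4 FPKM, beside 1.08 FPKM over all genes tested and 9.13 FPKM over the protein-coding genes tested. Against a level of 5 FPKM, 8 of the 10 were called above, where 32.9% of all genes were, and TERT and TERC below, where 60.1% were. Their order ran from DKC1 through ATRX, DAXX, TERF2, POT1, TINF2, ACD and TERF1 to TERT and TERC.

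**Figure D1:**
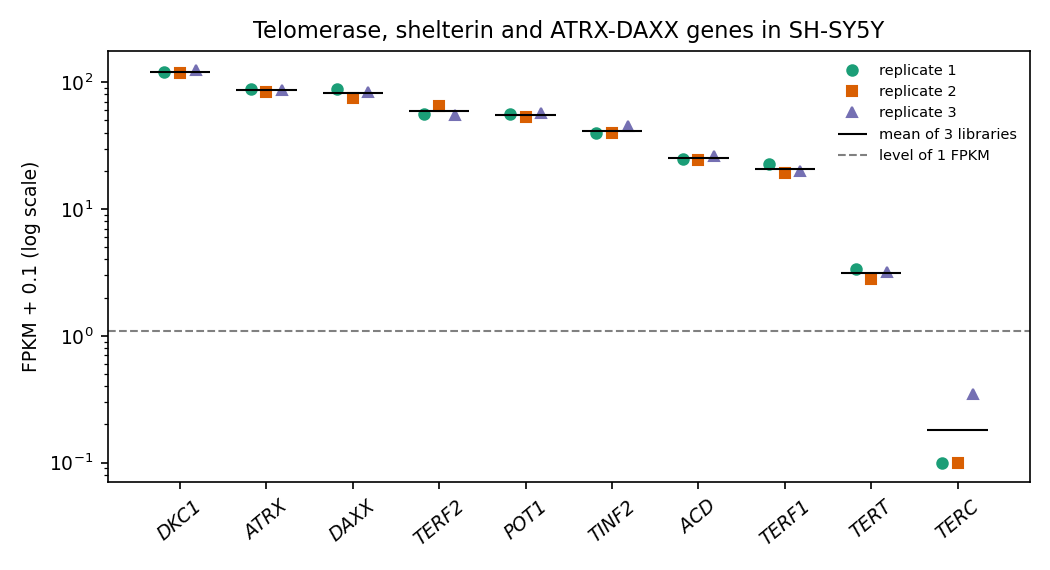
FPKM + 0.1 on a log axis for each of the 10 genes, ordered by mean, with 1 point per library, a bar at the mean of 3 libraries and a dashed line at the level of 1 FPKM. The points of 8 genes lie between 19.2 and 123.9 FPKM, TERT lies between 2.72 and 3.28 FPKM, and TERC is listed at 0 in 2 libraries.

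TERT, the catalytic subunit and the part that most body cells switch off, was expressed at a low level in every library. TERT (ENSG00000164362, chromosome 5, 1253147 to 1295069, minus strand) had 3.28, 2.72 and 3.06 FPKM in replicates 1, 2 and 3, a mean of 3.02 ± 0.282 FPKM (SD, n = 3). It was called above 1 FPKM, with a log2 distance of 1.50 (SE 0.0878, limma adjusted p = 0.000496). No library came near the level, and replicate 2 was the lowest. TERT still ranked 10936 from the top of 16750 protein-coding genes tested, with 34.7% of them below it.

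The reads behind TERT were enough to fix that level. Library depth, estimated from the even steps of low values in the table, was about 21600000, 28400000 and 43400000 reads in replicates 1, 2 and 3. If all TERT reads came from the longest coding transcript of 4018 bases, the values stand for about 271, 295 and 507 reads, against a floor of 3 reads that is worth 0.0364, 0.0277 and 0.0181 FPKM. The table gives 1 value per gene, so the full-length messenger of TERT and its shortened splice forms, which do not make active enzyme, cannot be told apart.

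TERC was at or near the floor. It was listed at 0 FPKM in replicates 1 and 2 and at 0.246 FPKM in replicate 3, where 3 reads are worth 0.407, 0.31 and 0.203 FPKM in replicates 1, 2 and 3. It was called below 1 FPKM (log2 distance -2.86, SE 0.472, limma adjusted p = 0.00881). The distance depends on the value of 0.1 added before the log, and was -0.89 with 1 added and -5.10 with 0.01 added (limma adjusted p = 0.00152 and 0.0388). Leaving out replicate 2 ended the call (log2 distance -2.56, limma adjusted p = 0.0649), and with replicate 3 left out the gene was 0 throughout and could not be tested. Where the table lists 0, the estimate may have failed or the reads may be missing.

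A second annotated entry shares the TERC sequence. The entry named RF00024 lies inside TERC on the same strand and covers bases 14 to 451 of the transcript, so that the authors' counting could divide reads between both. It had 0.197, 0 and 0.037 FPKM in replicates 1, 2 and 3. Converted with the depths above and an assumed fragment length of 200 bases, TERC and this entry together amount to 1.01, 0 and 4.02 reads. The telomerase RNA is thus represented by a handful of reads over all 3 libraries, with 4 of about 5 in the deepest, replicate 3.

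The mRNA kit named in the labels selects RNA with a poly(A) tail, which mature TERC lacks, so how much TERC the cells hold cannot be read from these values. FPKM values of other RNAs without such a tail, chosen after TERC had been seen, were higher than that of TERC on average and uneven between libraries. RMRP, the RNA of a mitochondrial and nucleolar RNase, averaged 2.49 ± 1.32 FPKM (SD, n = 3). RPPH1, the RNA of RNase P, averaged 0.886 ± 0.815 FPKM, and RN7SL1, the RNA of the signal recognition particle, 7.67 ± 3.90 FPKM. RPPH1 was listed at 0 in replicate 1. These RNAs are shorter than TERC, at 264 (RMRP), 333 (RPPH1) and 299 (RN7SL1) bases, so each read is worth more FPKM. Their values were not converted to reads, so a higher FPKM here need not mean more reads. The part of tail selection in the TERC value was not tested.

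DKC1, the gene of dyskerin, the pseudouridine synthase that binds TERC and other H/ACA RNAs, was the most abundant of the 10. DKC1 (ENSG00000130826, chromosome X, 154762742 to 154777689, plus strand) had 119.9, 117.5 and 123.9 FPKM in replicates 1, 2 and 3, and its mean of 120.4 ± 3.23 FPKM exceeded that of 94.8% of protein-coding genes tested. The libraries differed by a factor of 1.05 at most. TERT lay below DKC1 by a within-library log2 difference of -5.27 ± 0.12, in 3 of 3, and the mean of DKC1 was 39.8 times that of TERT. The snoRNA genes SNORA56 and SNORA36A lie within DKC1 exons on the same strand, and stood at 0 FPKM and at 7.93 ± 6.82 FPKM.

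The partners of dyskerin were unequal. NHP2 (180.2, 161.0 and 169.5 FPKM) and NOP10 (185.6, 171.3 and 190.3 FPKM), core proteins of the H/ACA particle, were higher than DKC1 in each library. GAR1, the fourth core protein, had 31.6, 28.4 and 31.0 FPKM and was lower than DKC1 in each. DKC1 lay below NHP2 by a log2 difference of -0.50 ± 0.08 and above GAR1 by 1.99 ± 0.06, each in 3 of 3 libraries. So the messengers of these 4 proteins, which sit together in 1 particle, spanned a 6.02-fold range of mean FPKM, NOP10 over GAR1.

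The other assembly factors of telomerase were also expressed. Of 12 genes in the list of telomerase and its assembly, which includes TERT, TERC and DKC1, 11 were called above 1 FPKM and TERC below. Among protein-coding genes tested 70.6% were called above. The median of the list was 30.4 FPKM. RUVBL2 (154 FPKM) and RUVBL1 (115 FPKM), ATPases that help assemble the particle, were near DKC1. WRAP53, whose protein TCAB1 brings telomerase to Cajal bodies, stood at 14.8 FPKM. SHQ1, a chaperone of dyskerin, had 43.4 FPKM in replicate 1 but 24.2 and 24.0 FPKM in replicates 2 and 3, the widest ratio between libraries among the coding genes of this list. NAF1, which holds the place of GAR1 during assembly, stood at 9.36 FPKM, and COIL, the scaffold of Cajal bodies, at 14.2 FPKM.

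Genes whose products act in 3' end processing of TERC were all called above 1 FPKM (8 of 8, DKC1 included, median 32.6 FPKM). Among protein-coding genes tested 70.6% were called above. PABPN1, a nuclear poly(A)-binding protein, was highest at 191 FPKM, followed by DKC1 and by the exosome helicase gene MTREX at 77.4 FPKM. PARN, the deadenylase that matures TERC, stood at 30.9 FPKM and TENT4B, the polymerase that adds the short tail PARN removes, at 7.19 FPKM. TOE1, another deadenylase, was lowest at 5.99 FPKM, and its exons overlap MUTYH on the other strand at 23.7 FPKM.

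**Figure D2:**
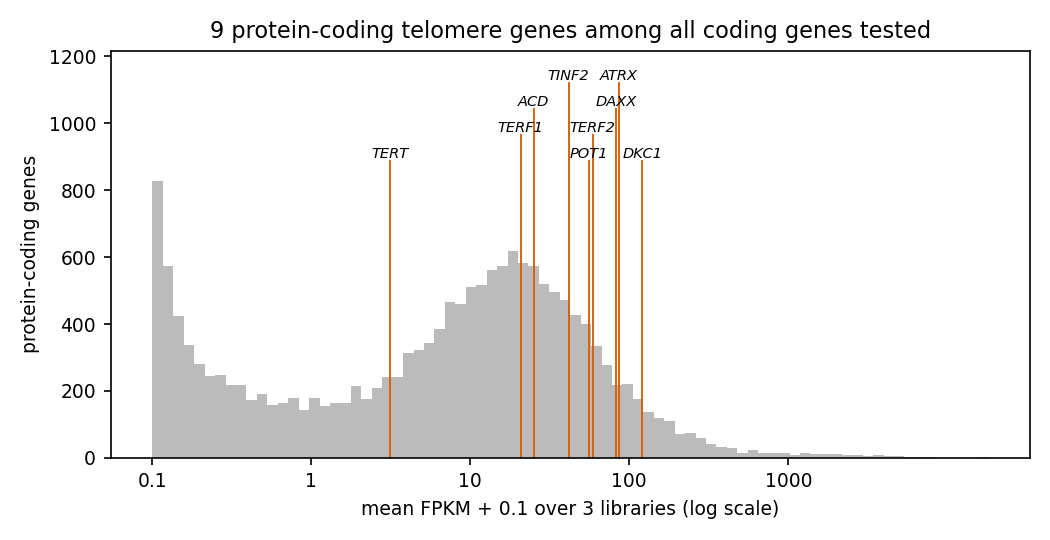
Histogram of mean FPKM + 0.1 (log axis) over the 16750 protein-coding genes tested, with an orange line at each of the 9 protein-coding genes of telomerase, shelterin and ATRX-DAXX. TERT lies left of the main peak at 3.02 FPKM, and the other 8 lie between TERF1 at 20.6 and DKC1 at 120.4 FPKM.

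The promoters of TERT and DKC1, the lowest and the highest coding genes of the set, are shown as RefSeq gives them on GRCh38.p14. Each runs from 250 bases before to 10 after the start used by RefSeq. For DKC1, GENCODE begins the gene at 154762742, inside the window, so part of that window lies within the gene as GENCODE has it. Capitals mark matches to the E-box CACGTG, the letters bound by MYC with MAX, and to the GC box GGGCGG, bound by SP1, on either strand. The TERT window held 1 E-box, at positions -163 to -158 from the start, and 3 GC boxes. The DKC1 window held no E-box and 4 GC boxes, of which the first pair overlap each other.
TERT promoter (chr5:1295059-1295318, minus strand): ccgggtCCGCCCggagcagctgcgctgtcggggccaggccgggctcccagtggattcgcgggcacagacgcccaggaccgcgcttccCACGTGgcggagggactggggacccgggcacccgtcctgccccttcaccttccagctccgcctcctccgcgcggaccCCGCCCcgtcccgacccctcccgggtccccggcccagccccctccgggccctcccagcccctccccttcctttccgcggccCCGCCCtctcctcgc
DKC1 promoter (chrX:154762614-154762873, plus strand): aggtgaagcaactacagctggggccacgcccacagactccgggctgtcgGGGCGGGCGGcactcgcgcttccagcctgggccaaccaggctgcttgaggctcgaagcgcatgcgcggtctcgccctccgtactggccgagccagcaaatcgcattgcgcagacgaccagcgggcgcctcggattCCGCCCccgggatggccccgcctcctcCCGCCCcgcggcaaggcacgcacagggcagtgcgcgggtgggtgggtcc

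Promoters of 5 of the 10 genes were matched: TERT, DKC1, POT1, TINF2 and ACD. Over 35116 RefSeq windows of 300 bases, both strands searched, 7.26% held an E-box, 45.0% a GC box and 17.2% the ETS core CCGGAA. The windows of all 5 genes held a GC box, TERT alone of the 5 held an E-box, and POT1 and TINF2 held an ETS core. These are matches of letters in the reference genome and no measure of binding. The promoter sequences of these cells were not examined.

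The transcription factors known to act on the TERT promoter were mostly expressed. Of 16 such genes, 15 were called above 1 FPKM, beside 70.6% of protein-coding genes tested. The repressor gene WT1 was listed at 0 and not tested. MAZ (173.7 FPKM), MXI1, a MYC antagonist (67.8 FPKM), and MAX, the partner of MYC (57.8 FPKM), were the 3 highest, and MYC followed at 54.6 FPKM. The mean of MYC was 18.1 times that of TERT, and MYCN, the gene amplified in many neuroblastomas, stood at 6.96 FPKM. SP1 stood at 21.7 FPKM, SP3 at 35.8 FPKM and the ETS1 gene at 19.1 FPKM. GABPA, the ETS factor that binds mutated TERT promoters, had 10.4 and 10.8 FPKM in replicates 1 and 2 and a missing value in replicate 3, so its call (limma adjusted p = 0.00072) rests on 2 libraries. GABPB2, a partner of GABPA, was lowest of the genes called above at 1.89 FPKM.

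All shelterin genes were expressed, at mean levels within a factor of 2.85. Of the 6 genes, which here include TERF2IP (RAP1, the partner of TERF2) beside the 5 members, 6 were called above 1 FPKM. Their median was 48.4 FPKM, and 70.6% of protein-coding genes tested were called above. The adjusted p of the limma fit was 2.99e-05 for TERF2 and POT1, and highest among the 5 members for TERF1 at 4.09e-05. TERF1 had the lowest mean, while TERF2, TERF2IP and POT1 had the highest means and could not be ranked among themselves.

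TERF1, which binds duplex telomere repeats and limits telomere length, was the lowest of the complex. TERF1 (ENSG00000147601, chromosome 8, 73008864 to 73048122, plus strand) had 22.6, 19.2 and 20.0 FPKM in replicates 1, 2 and 3, a mean of 20.6 ± 1.74 FPKM (SD, n = 3). TERF2, which binds the same repeats, forms the protective loop of the chromosome end and keeps ATM signalling off, was higher. TERF2 (ENSG00000132604, chromosome 16, 69355561 to 69408571, minus strand) had 56.5, 64.5 and 55.0 FPKM, a mean of 58.7 ± 5.12 FPKM. The lowest library of TERF2 stood well above the highest of TERF1, and the log2 difference of TERF1 from TERF2 was -1.51 ± 0.21 within libraries, in 3 of 3.

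Copies of TERF1 elsewhere in the genome took almost no signal. Of 5 annotated TERF1 pseudogenes 4 were listed at 0, and the highest averaged 0.017 FPKM. TERF2 shares 98 exonic bases with the entry AC026464.3 on the same strand, which averaged 12.0 FPKM, so a small part of its reads could be divided.

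TERF2IP, which depends on TERF2 to reach telomeres, had 55.3, 57.4 and 54.9 FPKM and a mean of 55.9 ± 1.35 FPKM. It lay just below TERF2 in each library, but the log2 difference of -0.07 ± 0.09 was smaller than its spread. TERF2IP shares 176 exonic bases with KARS on the other strand, at 195 FPKM, and since no source used here says whether strand was used in counting, the value of TERF2IP is uncertain.

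TINF2 encodes TIN2, the hub that ties TERF1, TERF2 and ACD together. TINF2 (ENSG00000092330, chromosome 14, 24239643 to 24242674, minus strand) had 39.5, 39.7 and 45.0 FPKM, a mean of 41.4 ± 3.10 FPKM, with replicate 3 above the others. It lay below TERF2 by a log2 difference of -0.50 ± 0.21 and above ACD by 0.73 ± 0.06, each in 3 of 3 libraries.

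POT1, which binds the single-stranded overhang, and ACD, whose protein TPP1 pairs with POT1 and recruits telomerase, were not expressed at equal levels. POT1 (ENSG00000128513, chromosome 7, 124822386 to 124929983, minus strand) had 56.5, 53.1 and 56.6 FPKM, a mean of 55.4 ± 2.01 FPKM. ACD (ENSG00000102977, chromosome 16, 67657512 to 67660815, minus strand) had 24.9, 24.1 and 26.0 FPKM, a mean of 25.0 ± 0.969 FPKM. No library of ACD came near any of POT1, and the log2 excess of POT1 over ACD was 1.15 ± 0.03, positive in all 3, with means 2.22 times apart. ACD shares 58 exonic bases with CARMIL2 on the other strand (23.1 FPKM), and POT1 shares 111 with POT1-AS1 (1.66 FPKM).

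ATRX and DAXX were both abundant and could not be ranked. ATRX (ENSG00000085224, chromosome X, 77504878 to 77786233, minus strand) had 87.8, 83.5 and 87.0 FPKM in replicates 1, 2 and 3, a mean of 86.1 ± 2.28 FPKM (SD, n = 3). DAXX (ENSG00000204209, chromosome 6, 33318558 to 33323016, minus strand) had 88.6, 75.3 and 83.7 FPKM, a mean of 82.6 ± 6.76 FPKM. The ranges overlap, and the log2 difference of ATRX from DAXX, 0.06 ± 0.08, was positive in 2 of 3 libraries (exact two-sided sign-flip p = 0.5). ATRX exceeded 92.2% of the protein-coding genes tested and DAXX 91.8%. A messenger level says nothing of point changes in the coding sequence, and the deletions inside ATRX that occur in ALT tumours would not all be seen in 1 value per gene.

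The messengers of the histone that ATRX and DAXX deposit were far more abundant than those of ATRX and DAXX. H3F3A (734, 677 and 693 FPKM) and H3F3B (399, 394 and 409 FPKM) both encode H3.3, and the log2 difference of H3F3B from H3F3A was -0.81 ± 0.06, negative in all 3. Their annotated pseudogenes, 6 and 2 in the table, summed to 1.12 and 0.193 FPKM, though no source used here says how reads of such near-identical copies were assigned. Of 16 genes in the list of H3.3 deposition, 15 were called above 1 FPKM, beside 70.6% of protein-coding genes tested. The median of the list was 22.0 FPKM.

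SP100 was the exception in that list. SP100, a scaffold of the PML nuclear bodies in which DAXX resides, had 0.226, 0.152 and 0.168 FPKM and was called below 1 FPKM (log2 distance -1.97, SE 0.109, limma adjusted p = 0.000425). With 1 added before the log in place of 0.1 the distance was -0.76, and with 0.01 added -2.41. PML itself, the organiser of those bodies, stood at 10.2 FPKM. The HIRA complex, which deposits H3.3 at genes, was represented by CABIN1 at 24.1 FPKM, HIRA at 19.3 FPKM and UBN1 at 15.9 FPKM. HIRA shares 66.5% of its exonic bases with C22orf39 on the same strand (20.3 FPKM), and UBN1 lies opposite GLYR1 (38.3 FPKM), so both values are uncertain. USP7, a deubiquitinase that binds DAXX, came next after the H3.3 genes at 154 FPKM, and CBX5, the heterochromatin protein HP1 alpha, stood at 77.5 FPKM.

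**Figure D3:**
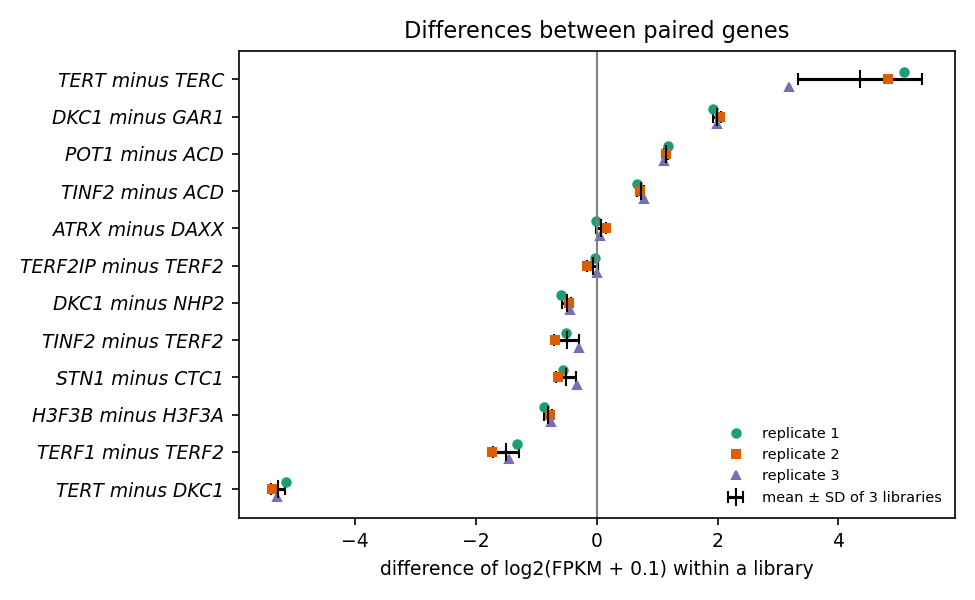
Differences of log2(FPKM + 0.1) between the genes of 12 pairs, with 1 point per library and the mean ± SD over 3 libraries, where values right of 0 mean that the first gene of the pair is higher. In 11 of the 12 pairs all 3 libraries fall on 1 side of 0, and ATRX minus DAXX straddles it.

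Neighbours in the order of levels were not all separated. DKC1 exceeded ATRX by 0.48 ± 0.03 on the log2 scale, DAXX exceeded TERF2 by 0.49 ± 0.23, POT1 exceeded TINF2 by 0.42 ± 0.09, ACD exceeded TERF1 by 0.28 ± 0.12, and TERF1 exceeded TERT by 2.73 ± 0.05, each in 3 of 3 libraries. ATRX and DAXX, and TERF2 and POT1 (0.08 ± 0.18, positive in 2 of 3), differed by less than their spread. With 3 libraries, an exact sign-flip test (two-sided) cannot go below p = 0.25. That value was reached by 11 of the 12 pairs (0.273 after Benjamini-Hochberg adjustment), so no pair passed a threshold of 0.05. The differences stand as sizes with their spread between libraries, which leaves out any error particular to a gene.

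The coding genes were steady between flasks. Their coefficient of variation ran from 2.65% for ATRX and 2.68% for DKC1 to 8.73% for TERF2 and 9.32% for TERT, and the median SD of log2 values was 0.106 over the 9, beside 0.105 over the 12208 protein-coding genes that averaged 1 FPKM or more. Of the 9, 7 had their lowest value in replicate 2, as did 41.4% of those 12208 genes. TERF2 went the other way, with its highest value there. By distance of log2 levels over the 3 libraries, the coding genes nearest to TERT were SLC35D3, ZNF75D and FIGN, those nearest to DKC1 were TMED10, MRPL9 and ERCC1, and those nearest to ATRX were RIC8A, ACTR3 and BASP1. Such likeness over 3 points is loose, since 98 genes lay within 0.25 of TERT, 182 of DKC1 and 226 of ATRX.

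The genes that act at telomeres beside shelterin were expressed throughout. All 7 genes of the CST complex and its polymerase were called above 1 FPKM (median 18.5 FPKM), all 17 helicases, nucleases and repair factors (median 15.5 FPKM), and all 11 regulators of shelterin and telomerase (median 16.3 FPKM). Over the 8 lists together, 89 of 91 genes tested were called above and 2, TERC and SP100, below. Without the 10 members, 80 of 81 were called above, against 70.6% of protein-coding genes.

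CST is the complex that follows telomerase and brings DNA polymerase alpha to fill in the second strand. CTC1, its large subunit, stood at 26.5 ± 3.72 FPKM and STN1 at 18.5 ± 0.974 FPKM, and the log2 difference of STN1 from CTC1 was -0.51 ± 0.17, negative in all 3. TEN1, the small subunit, had 9.21 FPKM in replicate 1 but 17.0 and 16.5 FPKM in replicates 2 and 3, and 75.4% of its exonic bases are shared with TEN1-CDK3 on the same strand (3.95 FPKM). The primase subunit PRIM1 (54.4 FPKM) and POLA2 (32.6 FPKM) were the highest of that list, followed by CTC1. PRIM1 shares 33 exonic bases with NACA on the same strand (1301 FPKM), so its value is uncertain.

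Among the repair factors, EXO1, a nuclease that trims telomere ends (64.3 FPKM), FEN1, a flap nuclease of lagging-strand synthesis (52.5 FPKM), and RAD50, of the MRN complex (48.0 FPKM), were the 3 highest. FEN1 shares 166 exonic bases with TMEM258 on the other strand at 145 FPKM, and 49 with FADS2 on the same strand at 121 FPKM. FANCM, a translocase that restrains ALT, was lowest of the 17 at 2.69 FPKM, and SLX4, a nuclease scaffold, stood at 4.12 FPKM. RTEL1, the helicase that unwinds telomere loops, shares 70.2% of its exonic bases with the readthrough gene RTEL1-TNFRSF6B (0.818 FPKM) and stood at 7.99 FPKM, below BLM at 16.4 FPKM and WRN at 9.68 FPKM. SMARCAL1, a fork remodeller at stressed telomeres, stood at 16.1 FPKM.

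Among the regulators, NEK2, a mitotic kinase (43.2 FPKM), HMBOX1, a protein that binds telomere repeats (35.7 FPKM), and TNKS, the tankyrase that releases TERF1 from telomeres (29.4 FPKM), had the 3 highest means. SMG5, a factor of nonsense-mediated decay, followed at 29.2 FPKM and was higher than TNKS in replicates 1 and 3. TNKS2 stood at 15.8 FPKM. PINX1, an inhibitor of telomerase that binds TERF1, had 17.5, 16.1 and 17.8 FPKM, above TERT and below TERF1 in every library. FBXO4, a ubiquitin ligase subunit that targets TERF1, was the lowest at 2.02 FPKM, called above 1 FPKM with limma adjusted p = 0.00715.

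**Figure D4:**
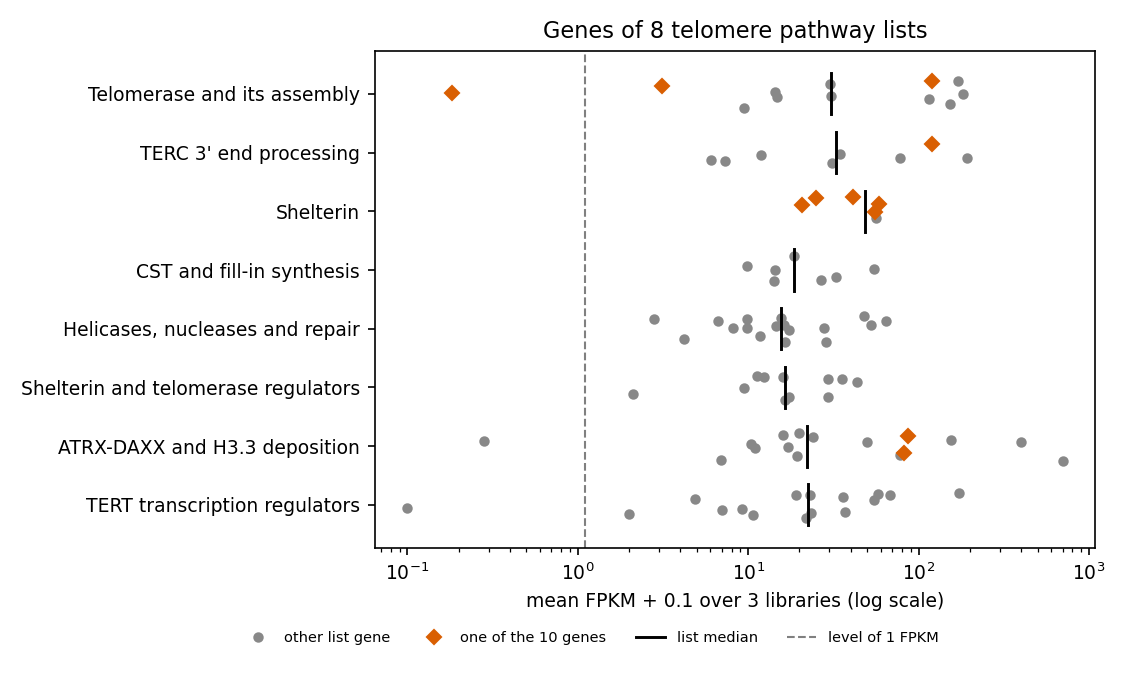
Mean FPKM + 0.1 over 3 libraries (log axis) for each gene of the 8 telomere pathway lists, with the 10 genes as orange diamonds, the other genes in grey, a bar at each list's median and a dashed line at 1 FPKM. TERC, SP100 and WT1 are the genes left of the dashed line.

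Markers of the labelled cell type were read beside those of other cell types. Of 8 markers of sympathoadrenal neuroblastoma 7 were called above 1 FPKM, beside 70.6% of protein-coding genes tested. TH (1.12 FPKM) was called neither. Their summed level was 4229 to 4384 FPKM per library, of which STMN2 alone averaged 2405 FPKM. PHOX2A averaged 381 FPKM, HAND2 454 FPKM, GATA3 286 FPKM and DBH 323 FPKM. Summed levels were 2.32 to 4.76 FPKM over 4 Schwann cell and glial markers, 0.125 to 0.32 FPKM over 4 immune markers, 0.012 to 0.094 FPKM over 3 endothelial markers and 1.31 to 2.39 FPKM over 3 epithelial markers, with CD3E, CDH5 and KRT5 at 0. Fibroblast markers summed to 20.4 to 27.2 FPKM, with DCN, LUM and COL1A1 called above 1 FPKM, and the part of such expression in the levels above was not tested. Exons of 40 of the 92 list genes overlap a gene on the other strand, which was the higher of the pair in 13. For all of these the level is uncertain while the strand setting is unknown.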

How the data were processed

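The authors deposited 1 table of FPKM values for 60660 Ensembl identifiers, with 1 column per library and no counts. Tools listed in the submitters' processing notes are TopHat2 2.1.1, Cufflinks 2.2.1, FastQC 0.10.1 and bcl2fastq, with build hg38. No source used here states their settings, the annotation release or the use of strand. Identifiers were matched to GENCODE 29 (57046 matched), and a name shared by several took the one with the highest mean.

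The limma 3.58.1 test (R 4.3.3, intercept only, two-sided, adjusted p under 0.05) set log2(FPKM + 0.1) of each gene against that of 1 FPKM, for genes above 0 in 1 or more libraries and with 2 or more values. Distances of low genes are understated on this scale. Pair differences used exact sign-flip tests in Python 3.11.15. Depth was estimated from genes of at least 600 exonic bases and 1 transcript, where 97.2%, 97.6% and 97.4% of low values in replicates 1, 2 and 3 lay within 0.1 of a whole read and chance gives 20%. Floors cover counting error only. The members and lists were chosen with earlier results of these data known. The rule for named genes took all members, genes of the pairs, the 3 highest of each list, list genes called below or neither, overlapping genes and copies of members, and nearest genes. Other list genes were chosen after their values were seen.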

Additional observations from a re-analysis of the deposited data

How the results depend on the processing

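The 9 coding genes were refitted under 12 alternatives. These were pseudocounts of 1 and 0.01, median-ratio rescaling, TPM, other filters, summed names, each library left out, and levels of 0.5 and 5 FPKM. In 107 of 108 fits the gene was called above the level in use. The exception was TERT, which lay below a level of 5 FPKM (log2 -0.71, limma adjusted p = 0.00352). For the other 8 genes, at 19.2 FPKM or more in every library, the direction was fixed in advance. The count of members called below, 1 as reported, was 2 at 5 FPKM (60.1% of all genes tested were below) and 0 at a mean filter of 0.1 FPKM, where TERC was not tested. With 1 library left out it ranged from 0 (without replicate 2 or 3) to 1, and limma without replicate 2 also gave 0 at an unadjusted p under 0.05. Of all list genes 2 were called below as reported, 7 at 5 FPKM, 1 with the mean filter, and 1 (without replicate 2 or 3) to 2 with a library left out. The 12 pair differences kept their sign in 72 of 72 refits. For 11 of them this was fixed in advance, since all 3 libraries share a sign. A changed pseudocount, TPM scaling or a library left out cannot alter that sign. Only ATRX minus DAXX could have changed sign. The median SD of the 10 genes, 0.112, ranged from 0.0515 (without replicate 2; 0.0574 without replicate 3) to 0.0935 with a library left out. No paired analysis was possible because the series has 1 group. With 3 libraries and no contrast, no change between conditions can be read from these levels.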
